A study of Rattus norvegicus with 12 samples.

Results

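The ascending thin limb (ATL) was examined in kidneys of ZSF1 rats by single-nucleus RNA sequencing (snRNA-seq), using the nuclei that the authors placed in their low-level cluster named ATL. The cluster held 685 of 217132 nuclei (0.315%), and all 685 belonged to the high-level type LOH, the loop of Henle, of which ATL made up 3.03% of 22627 nuclei. Only 2 of the 25 low-level clusters were smaller. The members were chosen by the deposited cluster name alone, and their number ranged from 6 to 193 nuclei per rat. The ascending thin limb is the segment of long loops of Henle that runs upward through the inner medulla, between the descending thin limb (DTL) and the thick ascending limb (TAL). It is permeable to salt but hardly to water, so that sodium chloride leaves the lumen passively, in part through the chloride channel ClC-K1, and it contributes to the concentration of urine. Because long loops and the inner medulla occupy a small part of the kidney, its cells are few in whole-kidney preparations.

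Kidney nuclei of 12 male rats were sequenced, 3 in each of 4 groups, and the tests below compare rats; counts pooled over nuclei are descriptions. Lean ZSF1 rats served as controls and were left untreated. Obese ZSF1 rats carry 2 defective alleles of the leptin receptor gene (the labels write ZSF1-LeprfaLeprcp/Crl for all 12 rats, lean ones included), which makes them obese and diabetic, and they received vehicle (Obese), the soluble guanylate cyclase activator BAY 1101042, also called runcaciguat (Obese+sGCact), or the soluble guanylate cyclase stimulator BAY 1165747 (Obese+sGCstim). Treatment of the obese rats began at 13 to 14 weeks of age and lasted 12 weeks, so that the obese rats were 25 to 26 weeks old at its end; the age of the lean rats is not given in the sources used here. Both compounds were given at 3 mg/kg, the sGCact 2 times and the sGCstim 1 time a day, so their daily doses differed. Soluble guanylate cyclase makes cGMP; stimulators act on the enzyme with its reduced heme and activators on the oxidized or heme-free form. The 3 sequenced rats of a group were drawn from 6 lean rats and from 10 rats in each obese group. Nuclei came from small pieces of frozen kidney, and from which part of the kidney a piece was taken is not given in the sources used here.

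The deposited table gives 1 entry per nucleus and no expression of single genes, so the name ATL could not be compared with marker genes in it. It could be compared with the position of the nuclei on the two-dimensional map (UMAP) of all nuclei, which was made from the same data as the clusters. Among the 30 nearest neighbours of ATL nuclei, 73.0% were ATL, 11.3% DTL, 7.60% TAL and 2.36% PTinj, the injured proximal tubule cluster. The centre of DTL lay closest to that of ATL, at 2.07 map units, followed by DTL(Shroom3+) at 3.57, the fibroblast and pericyte cluster Fib/Peri at 3.61 and TAL at 3.76. ATL thus sat next to other loop segments. Its nuclei were less separate than theirs: 11.8% of ATL nuclei had less than 10% ATL among their neighbours, whereas only 1.68% of DTL, 1.46% of DTL(Shroom3+) and 1.40% of TAL nuclei had so few of their own kind.

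By the cluster most frequent among these neighbours, 521 of the 685 ATL nuclei lay among ATL, 74 among DTL, 45 among TAL, 4 among DTL(Shroom3+) and 41 among other clusters. The 74 nuclei surrounded by DTL came mostly from the lean group, which gave 57 of them, with 7 from Obese, 4 from Obese+sGCact and 6 from Obese+sGCstim rats. In the 3 lean rats these made up 8.81%, 36.8% and 28.9% of ATL nuclei, against 3.33%, 4.35% and 9.43% in Obese rats, so the groups overlapped. Of the 45 nuclei surrounded by TAL, 7 were from lean, 19 from Obese, 0 from Obese+sGCact and 19 from Obese+sGCstim rats. RK61_4 alone gave 16 of the Obese+sGCstim nuclei, and RK58_4 of that group and the lean RK3_4 also had 0. The 0 of 89 nuclei in Obese+sGCact rats allows a share of up to 3.37% (counting error only). This position is part of how the cluster was made and was not tested.

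**Figure D1:**
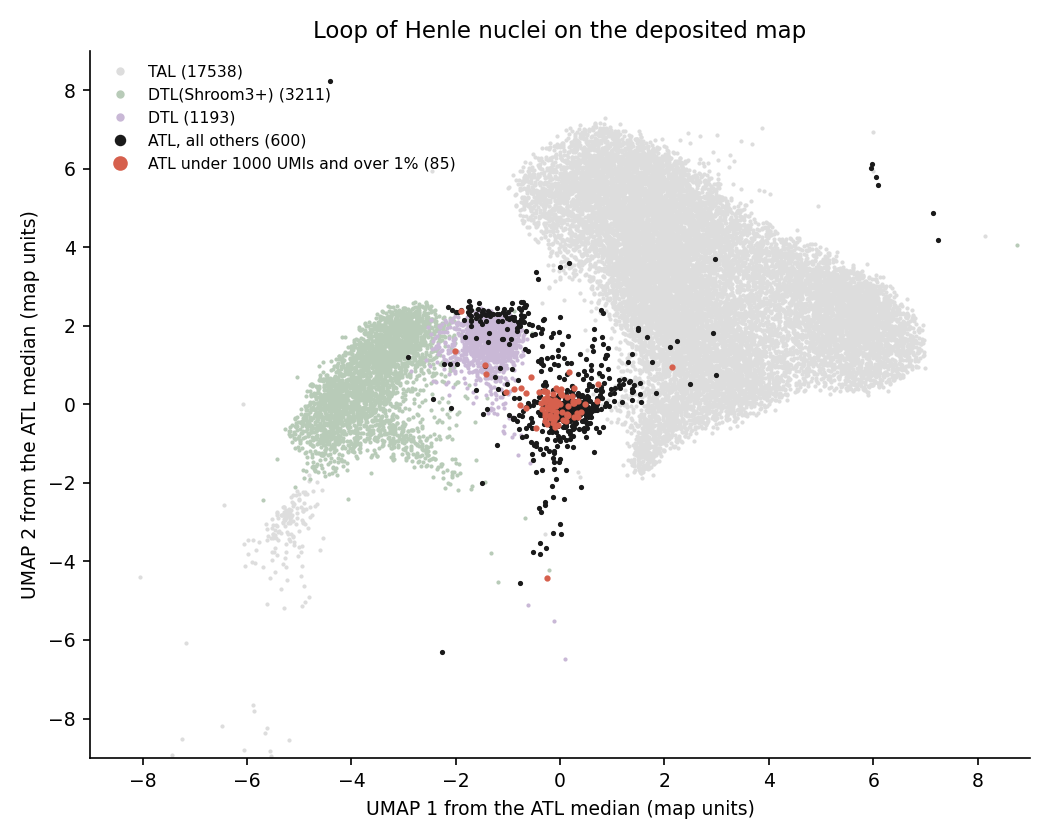
Map of the loop of Henle nuclei, with both axes in map units from the median position of ATL. Each point is a nucleus, coloured by cluster, with the 85 ATL nuclei under 1000 UMIs and over 1% mitochondrial in red; 11 ATL, 10 DTL, 1 DTL(Shroom3+) and 244 TAL nuclei lie outside the 9 units shown to each side. The ATL nuclei form an island between DTL and TAL, with others inside the DTL area, and most red nuclei gather at its centre.

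Depth varied among rats as well as among nuclei. The retained nuclei of a rat summed to between 11898496 and 49272672 unique molecular identifiers (UMIs, each counting 1 captured transcript molecule), and the number of nuclei ran from 10488 to 43484. In every rat the retained number was above the number of nuclei stated as loaded. The reason was not tested, and every retained entry was counted as a nucleus in the shares and medians below. ATL nuclei held 560 to 4977 UMIs (median 1849) and 475 to 2201 expressed genes. No barcode occurred more than once among ATL nuclei, and 38 of the 685 ATL barcodes were also found in another rat in any cluster. The p-values below refer to differences between the sequenced rats. Those of limma use a spread drawn partly from all clusters of the same rats, and not from ATL alone. For 3 rats against 3 an exact permutation test has 20 splits and cannot go below 0.1.

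ATL nuclei were most frequent in 2 of the 3 lean rats, but the share varied so widely within groups that no contrast passed the test. Among lean rats, ATL made up 1.16% of nuclei in RK1_4 (193 nuclei), 0.125% in RK3_4 (19 nuclei) and 0.674% in RK5_4 (114 nuclei). In Obese rats it was 0.284% in RK7_4 (30 nuclei), 0.0529% in RK9_4 (23 nuclei) and 0.404% in RK16_4 (53 nuclei). Lean and Obese rats overlapped, since RK3_4 lay below 2 of the Obese rats. Obese+sGCact rats had 0.259% in RK43_4 (55 nuclei), 0.130% in RK45_4 (28 nuclei) and 0.0572% in RK46_4 (6 nuclei). Obese+sGCstim rats had 0.162% in RK57_4 (20 nuclei), 0.131% in RK58_4 (16 nuclei) and 0.549% in RK61_4 (128 nuclei). RK1_4, RK5_4 and RK61_4 had the highest shares, each with more than 100 ATL nuclei. Counting error was smaller than this spread: the Wilson 95% interval of the highest share ran from 1.01% to 1.33% and that of RK3_4, in the same group, from 0.0803% to 0.196%. Such intervals cover counting error only.

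The mean share was 0.652% ± 0.516 (SD, n = 3) in lean, 0.247% ± 0.178 (SD, n = 3) in Obese, 0.149% ± 0.102 (SD, n = 3) in Obese+sGCact and 0.281% ± 0.233 (SD, n = 3) in Obese+sGCstim rats. The log odds of the share were compared by limma over all 25 clusters. The change from lean to Obese was -0.93 (SE 0.71, adjusted p = 0.389), corresponding to odds 0.396 times those of lean rats (95% interval 0.0849 to 1.85). In this contrast DTL, TAL and PTnov2, a proximal tubule cluster, passed the test and ATL did not, and 12% of clusters were called. The change was -0.36 (SE 0.71, adjusted p = 0.671) from Obese to Obese+sGCact and 0.22 (SE 0.71, adjusted p = 0.953) from Obese to Obese+sGCstim. Between the compounds, at unequal daily doses, it was -0.59 (SE 0.71, adjusted p = 0.964), an odds ratio of 0.557 (95% interval 0.119 to 2.60). In each of these 3 contrasts limma called 0% of clusters, with 0 clusters at an unadjusted p under 0.05, and edgeR also called 0. The 95% interval of the odds ratio spanned more than a 2-fold change in either direction in each of the 3 contrasts. All 9 obese rats against the 3 lean rats gave a change of -0.97 (exact permutation test, two-sided, p = 0.141; adjusted over 6 comparisons, p = 0.8). Leaving out 1 rat at a time moved it from -1.62 without RK3_4 (adjusted p = 0.218 in the same exact test) to -0.51 without RK1_4 (adjusted p = 0.917), both lean rats. Likewise, the odds ratio of Obese to lean rats was 0.208 without RK3_4, 0.627 without RK1_4 and 0.735 without RK9_4, and none of these passed the test. The share of a cluster also depends on all the others: once the total was restricted to nuclei outside the proximal tubule, the change from lean to Obese was 0.026 (adjusted p = 0.969).

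**Figure D2:**
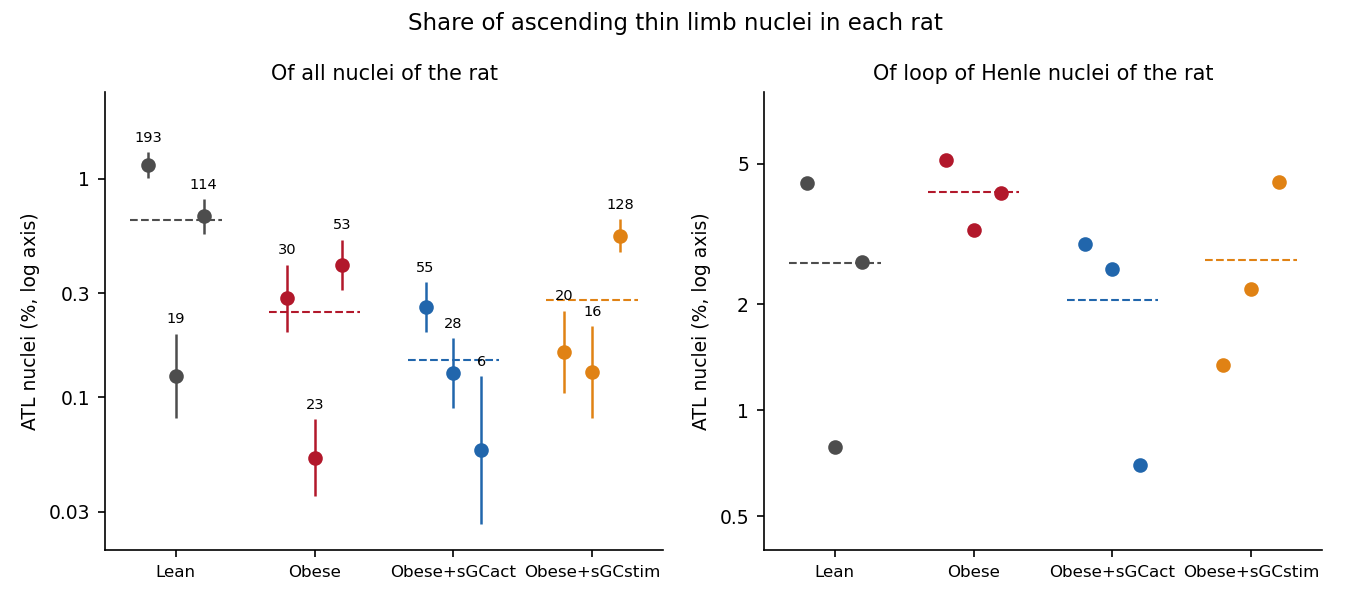
Percentage of ATL nuclei (log axes) among all nuclei of each rat (left; bars are Wilson 95% intervals, numbers are ATL nuclei) and among its loop of Henle nuclei (right), by group, with dashed lines at group means. The lean rats span 0.125% to 1.16% of all nuclei, while the 3 Obese rats lie above the 3 Obese+sGCact rats in the loop.

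Within the loop of Henle the ordering of groups was different, and the Obese rats on vehicle had the highest mean, 4.17% ± 0.947 (SD, n = 3). ATL made up 4.41%, 0.784% and 2.63% of loop nuclei in the lean rats and 5.14%, 3.24% and 4.12% in the Obese rats. It made up 2.96%, 2.51% and 0.699% in Obese+sGCact and 1.35%, 2.21% and 4.45% in Obese+sGCstim rats. Each Obese+sGCact rat lay below each Obese rat (change in log odds -0.86; two-sided exact permutation p = 0.1, which is the lowest that the design allows; adjusted p = 0.321). The Obese rats exceeded lean rats in 7 of 9 comparisons of rats (0.69, exact p = 0.3), and Obese+sGCstim rats were lower than Obese rats in 7 of 9 (-0.56, exact p = 0.3). Obese+sGCact and Obese+sGCstim rats overlapped (-0.30, exact p = 0.7).

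The group means of the ratios to TAL and to DTL had the same order as those of the loop share. The ratio to DTL(Shroom3+) was not examined. The TAL, which takes up salt through the cotransporter NKCC2 and follows the ATL along the loop, had 5.81, 0.964 and 3.26 ATL nuclei per 100 TAL nuclei in lean rats, 6.85, 4.11 and 6.13 in Obese, 3.93, 3.53 and 0.886 in Obese+sGCact and 1.56, 2.81 and 5.93 in Obese+sGCstim rats. All 9 comparisons placed Obese+sGCact below Obese rats (log2 ratio -1.24, exact permutation test, p = 0.1; adjusted p = 0.3). Both compounds together were lower than vehicle in 17 of 18 comparisons (log2 ratio -1.07, exact permutation test, p = 0.0833; adjusted p = 0.3). The ratio to DTL, the water-permeable segment before the ATL, was 0.687, 0.174 and 0.481 in lean, 1.88, 0.442 and 0.828 in Obese, 0.529, 0.301 and 0.2 in Obese+sGCact and 0.4, 0.615 and 0.977 in Obese+sGCstim rats. The highest, in RK7_4, rests on 30 ATL and 16 DTL nuclei. No contrast of the DTL ratio had groups that did not overlap, and the smallest exact p was 0.167, for either compound against vehicle.

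Across the 12 rats, the share of ATL correlated most with the shares of both DTL clusters, though not past the adjusted threshold. The Pearson correlation of log odds was 0.75 with DTL(Shroom3+) (permutation p = 0.0032, adjusted over 22 clusters 0.0704; Spearman's rho 0.68, permutation p = 0.0188, adjusted 0.296) and 0.73 with DTL (permutation p = 0.00665, adjusted 0.0731; rho 0.64, permutation p = 0.03, adjusted 0.296). Without the 2 rats farthest from the median ATL share, RK1_4 and RK9_4, r fell to 0.56 and 0.47, and within groups it was 0.74 and 0.83. TAL followed closely, with r of 0.70 (permutation p = 0.0109, adjusted 0.0798), 0.41 without these 2 rats and 0.70 within groups. The proximal straight tubule cluster PST(Spp1+) had 0.29 over all rats but 0.76 within groups, above DTL(Shroom3+). The lowest correlation was with the proximal convoluted tubule cluster PCT, at -0.36 (permutation p = 0.251, adjusted 0.690; rho -0.47, permutation p = 0.127, adjusted 0.469; -0.48 without the same 2 rats). None of the 22 passed the adjusted threshold of 0.05, and shares of 1 library are tied to each other because they sum to the whole.

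ATL nuclei of Obese+sGCact rats held far fewer UMIs than those of any other group. The median per nucleus was 2890 in RK1_4, 2070 in RK3_4 and 1474 in RK5_4 of the lean group. It was 1349 in RK7_4, 2285 in RK9_4 and 1411 in RK16_4 of the Obese group. In Obese+sGCact rats it was 719 in RK43_4, 694.5 in RK45_4 and 833.5 in RK46_4, below every other rat. Obese+sGCstim rats lay close together at 1736 in RK57_4, 1851.5 in RK58_4 and 1907.5 in RK61_4. The group means were 2145 ± 711, 1682 ± 523, 749 ± 74.2 and 1832 ± 87.5 UMIs (SD, n = 3 each). The median number of expressed genes followed, at 550 to 694 in Obese+sGCact and 804 to 1663 in the 9 other rats.

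limma on log2 medians of the 23 clusters with nuclei in all rats gave a change of -1.13 (SE 0.31, adjusted p = 0.0058) from Obese to Obese+sGCact, a fold of 0.457 (95% interval 0.298 to 0.703). ATL and the podocyte cluster Podo were the 2 clusters called, 8.7% of 23, and Podo changed in the other direction, by 1.44 (SE 0.35, adjusted p = 0.00194). Between the compounds the difference was -1.29 (SE 0.31, adjusted p = 0.00183), a fold of 0.408 (95% interval 0.265 to 0.627), and ATL was the only cluster called on medians, 4.35% of 23. On means over nuclei DTL was called beside ATL in this contrast, 8.7% of 23, with -0.86 for DTL (SE 0.29, adjusted p = 0.0361) and -1.13 for ATL (SE 0.29, adjusted p = 0.00276). The median change over all 23 clusters was 0.030 and -0.13 in these contrasts. The limma spread was largely shared among clusters, with an SE of 0.31 to 0.32 in each of the 4 loop clusters. Exact permutation tests on the ATL medians alone gave p = 0.1 in both contrasts, the lowest possible (adjusted p = 0.3), with 9 of 9 comparisons of rats lower. Obese+sGCstim did not differ detectably from Obese (0.17, SE 0.31, adjusted p = 0.961; 95% interval of the fold 0.729 to 1.72), with 0% of clusters called by limma and 2 at an unadjusted p under 0.05. From lean to Obese the ATL change was -0.34 (SE 0.31, adjusted p = 0.416) while DTL, Fib/Peri, Podo and the proximal straight tubule cluster PST were called, 17.4% of 23, all lower. Without RK9_4, the Obese rat with the most nuclei, the change from Obese to Obese+sGCact was -0.89 (adjusted p = 0.0953) and was no longer called. Among the 9 rats with at least 20 ATL nuclei, a choice made after seeing the data, it was -1.21 (adjusted p = 0.04), and the difference between the compounds was -1.36 (adjusted p = 0.0601).

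**Figure D3:**
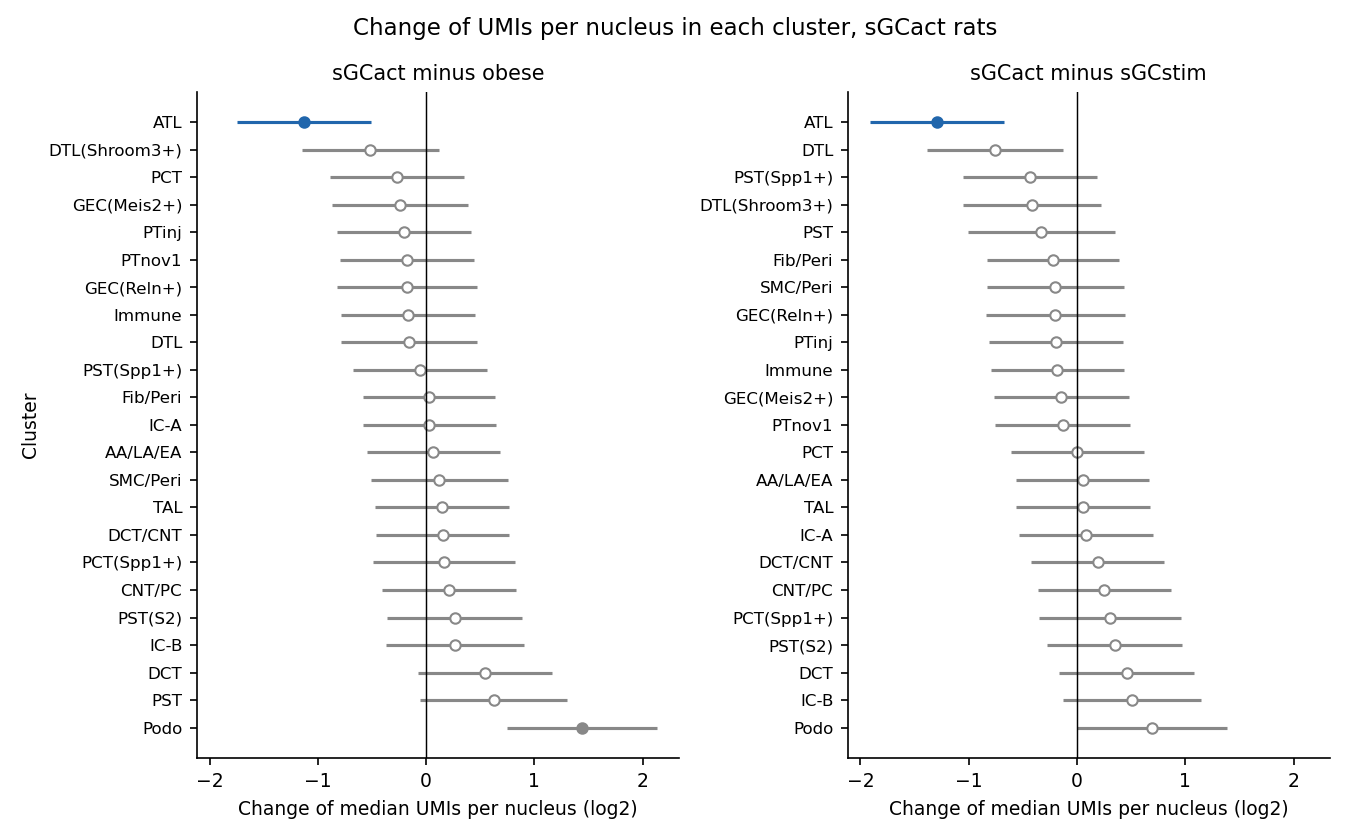
Change in the log2 median of UMIs per nucleus in each of 23 clusters, from Obese to Obese+sGCact (left) and from Obese+sGCstim to Obese+sGCact (right). Points are limma estimates over 3 rats per group, bars are 95% intervals, filled points have an adjusted p under 0.05, and ATL is in blue; it has the lowest estimate in both panels, at -1.13 and -1.29.

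ATL was also compared with the other clusters of the same rat. The mean log2 median of the 22 other clusters of the same rat was subtracted from that of ATL. ATL nuclei then stood at 0.28, 0.16 and 0.0031 in lean, 0.34, 0.67 and 0.16 in Obese, -0.91, -0.84 and -0.76 in Obese+sGCact and 0.40, 0.31 and 0.63 in Obese+sGCstim rats. ATL had more UMIs than the mean of other clusters in each of the 9 rats without sGCact and 0.532 to 0.591 times as many in the 3 rats with it. Among 23 clusters ordered by median UMIs within a rat, ATL ranked between 3 and 11 in those 9 rats and at 21, 23 and 20 in RK43_4, RK45_4 and RK46_4. The differences of -1.22 from Obese and -1.28 from Obese+sGCstim each had an exact permutation p of 0.1, the smallest possible (adjusted p = 0.3), with all 9 comparisons of rats in the same direction.

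Of the neighbouring segments, DTL was also shallow in the Obese+sGCact rats, DTL(Shroom3+) was so in RK43_4 and RK45_4, and TAL was not. In the Obese+sGCact rats the median UMIs of TAL nuclei were 1547, 1756.5 and 1619, with a change from Obese of 0.15 (SE 0.31, adjusted p = 0.814). DTL nuclei in these rats held 682, 695 and 764.5 UMIs, but DTL was already low in Obese rats, at 703.5, 908 and 783, so that its change was -0.15 (SE 0.32, adjusted p = 0.814). In Obese+sGCstim rats DTL nuclei held 1485.5, 774.5 and 1522 UMIs. Between the compounds DTL thus differed in the direction of ATL, by -0.76 (SE 0.32, adjusted p = 0.211), lower in 9 of 9 comparisons of rats and at rank 2 from the lowest of 23 clusters. DTL(Shroom3+), a cluster named for the actin-binding Shroom3, held 867 UMIs in RK43_4, 771 in RK45_4 and 1458 in RK46_4. Its medians were 1065 to 2106 in the 9 other rats, and its change from Obese was -0.51 (limma, SE 0.32, adjusted p = 0.509). Relative to the mean log2 median of these 3 loop clusters, the ATL level of Obese+sGCact rats differed by -0.95 from that of Obese and by -0.92 from that of Obese+sGCstim rats (exact permutation p = 0.1 for each, the smallest possible; adjusted p = 0.2). Whether the ATL change differed from that of DTL alone was not tested.

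**Figure D4:**
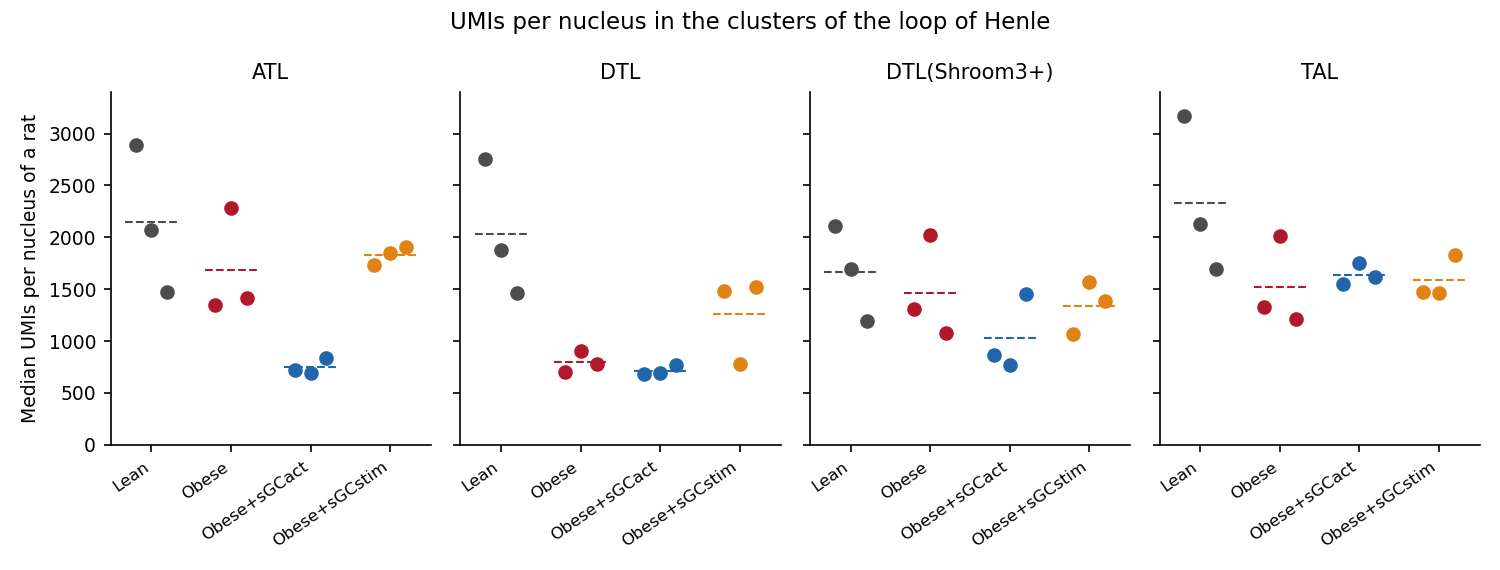
Median UMIs per nucleus of each rat in the 4 loop of Henle clusters, by group, with dashed lines at group means. The 3 Obese+sGCact rats lie between 694.5 and 833.5 in ATL, below all other rats, whereas in TAL they lie between 1547 and 1756.5, within the range of the other rats.

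The ATL nuclei of Obese+sGCact rats also had a high share of mitochondrial UMIs, which in nuclei come from RNA outside the nucleus. The median percentage was 0.222 in RK1_4, 0.386 in RK3_4 and 0.0691 in RK5_4 of the lean group, and 0.126 in RK7_4, 0.204 in RK9_4 and 0.367 in RK16_4 of the Obese group. It was 4.08 in RK43_4, 2.73 in RK45_4 and 0.965 in RK46_4 of the Obese+sGCact group, above every other rat. It was 0 in RK57_4, 0.0176 in RK58_4 and 0.103 in RK61_4 of the Obese+sGCstim group, below every Obese rat. On the log2(percentage + 0.1) scale, which understates changes of low percentages, limma gave 4.12 (SE 0.75, adjusted p = 0.00324) between Obese+sGCact and Obese+sGCstim. ATL was the only one of 23 clusters called, 4.35%. The size of this difference rests on the pseudocount, since the medians of the Obese+sGCstim rats were at or near 0: it was 6.14 (adjusted p = 0.0118) with 0.01 and 1.68 (adjusted p = 0.00615) with 1, and passed with each. From Obese to Obese+sGCact the change was 2.87 (SE 0.75, adjusted p = 0.0557), which did not pass, and limma called 0% of clusters with 2 at an unadjusted p under 0.05; with a pseudocount of 1 the change was 1.44 (adjusted p = 0.0189) and ATL was the only cluster called, 4.35%. It also passed without RK16_4 (3.15, adjusted p = 0.0423), without RK46_4 (3.44, adjusted p = 0.0263) or without RK61_4 (2.87, adjusted p = 0.043). The change from Obese to Obese+sGCstim was -1.25 (SE 0.75, adjusted p = 0.59) and that from lean to Obese 0.091 (SE 0.75, adjusted p = 0.926), and in both contrasts 0% of clusters were called, with 2 at an unadjusted p under 0.05.

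DTL nuclei of the Obese+sGCact rats had similar percentages, with medians of 4.37, 2.48 and 2.02. DTL stood at 0.786, 6.58 and 3.05 in Obese rats and at 0, 1.92 and 0.415 in Obese+sGCstim rats. Its change was 0.13 (limma, SE 1.09, adjusted p = 0.925) from Obese and 2.63 (limma, SE 1.09, adjusted p = 0.377) from Obese+sGCstim rats, the latter higher in 9 of 9 comparisons of rats. High mitochondrial percentages were therefore found in both segments of the Obese+sGCact rats. They were also found in DTL of 2 Obese rats and, at 1.92, of the Obese+sGCstim rat RK58_4. The medians of DTL(Shroom3+) were 3.17 in RK43_4, 1.61 in RK45_4 and 0.0263 in RK46_4, and at most 1.95 in the 9 other rats.

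The median number of mitochondrial UMIs per ATL nucleus was higher in RK43_4 and RK45_4 than in any rat of the other groups. Sums did not follow this order: they were 6209 in RK1_4 (193 nuclei), 1716 in RK43_4 (55 nuclei) and 461 in RK45_4 (28 nuclei). A median ATL nucleus held 29, 18.5 and 7.5 mitochondrial UMIs in the Obese+sGCact rats, 6, 8 and 1 in lean, 2, 3 and 5 in Obese and 0, 0.5 and 2 in Obese+sGCstim rats. RK46_4, with 7.5, lay within the range of the lean rats. Outside mitochondrial genes the median ATL nucleus held 671, 673.5 and 815.5 UMIs in the Obese+sGCact rats and 1347 to 2889 in all others, and this alternative, added after seeing the data, left the change from Obese at -1.18 (limma, adjusted p = 0.00497).

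Nucleus by nucleus, both properties occurred together. In the Obese+sGCact group 81 of 89 ATL nuclei had under 1000 UMIs, 80 had over 1% mitochondrial UMIs and 79 had both, 51 of them in RK43_4, 25 in RK45_4 and 3 in RK46_4. In the other groups both occurred in 0 of 326 lean nuclei, 5 of 106 Obese nuclei and 1 of 164 Obese+sGCstim nuclei. The 11 lean ATL nuclei under 1000 UMIs were all in RK5_4, whereas of the 46 over 1% mitochondrial 37 were in RK1_4, 7 in RK3_4 and 2 in RK5_4, so that the lean rats offered little room for both. The 0 of 326 lean nuclei allows a share of up to 0.92%, for counting error only. The percentage under 1000 UMIs was 94.5, 89.3 and 66.7 in the 3 Obese+sGCact rats, the last with an exact 95% interval of 22.3 to 95.7 because RK46_4 had 6 ATL nuclei, and it was at most 13.2 in any other rat. All 9 comparisons of Obese+sGCact with Obese rats had the same direction (exact permutation test, p = 0.1; adjusted p = 0.3), as did all 9 with Obese+sGCstim rats (exact permutation test, p = 0.1; adjusted p = 0.3).

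**Figure D5:**
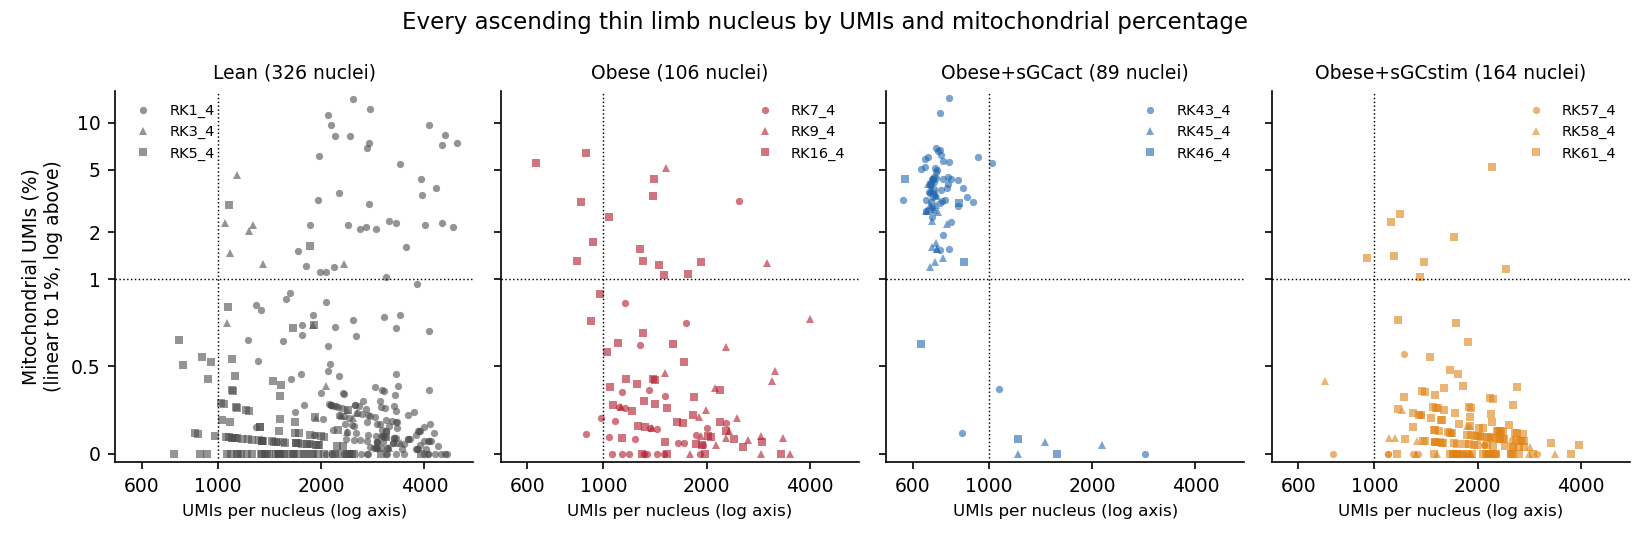
Each ATL nucleus by its UMIs (log axis) and mitochondrial percentage (linear to 1%, log above), in 1 panel per group, with a symbol per rat and dotted lines at 1000 UMIs and 1%. In the Obese+sGCact panel 79 of 89 nuclei lie in the upper left field, against 0 of 326, 5 of 106 and 1 of 164 in the other panels.

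In RK43_4 and RK45_4 the shallow, mitochondrial-rich ATL nuclei lay in the middle of the cluster on the map. They were at a median of 0.341 and 0.328 map units from the centre of ATL, each with a median of 100% ATL neighbours. The 3 such nuclei of RK46_4 were farther out, at 0.965 with 30% ATL neighbours, as were the 5 of RK16_4, at 1.75 with 43.3%. The ATL nuclei without both properties were at medians of 0.424 to 1.53 in the 9 other rats. In RK43_4, RK45_4 and RK46_4 they were also central, at 0.568, 0.622 and 0.173, from 4, 3 and 3 nuclei. Among ATL nuclei surrounded by ATL, the median UMIs were 718.5, 691 and 634 in the Obese+sGCact rats and 1402 to 2962 in all others, so the Obese+sGCact rats were again below every other rat. The value of RK46_4, 634, rests on 3 nuclei.

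Nuclei with both properties were also common in some other clusters of the same rats. In the Obese+sGCact group their mean percentage was 92.2 ± 7.54 in PTnov1, 89.4 ± 13.9 in DTL, 83.3 ± 25.7 in PST(Spp1+) and 77.3 ± 23.7 in ATL (SD, n = 3 rats each), the 4 highest of 23 clusters. In the other loop clusters it was 40.3 ± 26.7 in DTL(Shroom3+) and 13.6 ± 12.4 in TAL. In Obese rats it was 80.6 ± 12.7 in PTnov1, 62.0 ± 16.3 in DTL, 80.3 ± 19.0 in PST(Spp1+) and 3.14 ± 5.45 in ATL. What part depth and mitochondrial RNA play in the placing of these nuclei in ATL was not tested.

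Few ATL nuclei of Obese+sGCact rats were well covered. With at least 1000 UMIs, these rats kept 3, 3 and 2 ATL nuclei, or 0.0250%, 0.0287% and 0.0231% of their nuclei at that limit. The Obese rats kept 28, 23 and 46, or 0.702%, 0.194% and 0.463%, and the Obese+sGCstim rats 19, 15 and 127, or 0.197%, 0.140% and 1.10%. With at most 1% mitochondrial UMIs each Obese+sGCact rat kept 3 ATL nuclei. These limits act on the values in which the ATL nuclei already differed, so the lower shares restate those differences and are no test of the number of ATL nuclei. Among nuclei with at most 1% mitochondrial UMIs the UMI change from Obese was -0.43 (limma adjusted p = 0.724), and it rests on 3 nuclei in each Obese+sGCact rat.

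The cell cycle scores of ATL nuclei, which the authors computed from genes of S phase and of G2 and mitosis, did not separate the groups. The mean S score per rat ran from -0.0149 to 0.0442 and the mean G2M score from -0.0248 to 0.0218 over the 12 rats. Group differences in S score lay between -0.0207 and 0.00898, with exact permutation p from 0.2 to 0.964, and in G2M score between -0.000141 and 0.0135, with exact permutation p from 0.177 to 1. Between 53.6% and 75% of the ATL nuclei of a rat were called S or G2M, against 62.5% to 70.8% of the other nuclei of the same rats. The range of ATL lay around that of the other nuclei, and no cycling was read from these calls. Calls depend on depth and on free RNA, and the nuclei could not be thinned to equal depth without gene counts.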

How the data were processed

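The authors isolated nuclei from frozen kidney, made droplet libraries with UMIs (10000 nuclei loaded), aligned reads to rn6 with introns included (Cell Ranger, version 6 in the submitters' processing notes and another version in the study's methods), corrected ambient RNA, removed doublets, kept nuclei with 200 to 3000 genes and at most 15% mitochondrial UMIs, merged 12 rats with UMIs regressed out, corrected batches and clustered. Per the deposited table, UMIs per nucleus are counts without normalization, the mitochondrial value is in percent of UMIs, S and G2M values are scores by the authors, and clusters and map positions are other values. The authors' percent values gave whole mitochondrial UMIs. Of the columns with values of samples, 0 were left unmapped. Rats and groups come from the table; rats match sample entries only by group. The rats kept 10488 to 43484 nuclei each, more than the 10000 stated as loaded, and why was not tested. Gene counts were not analysed here.

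Each rat was 1 replicate. Log odds of shares (0.5 nuclei added to a cluster, 1 to the total), log2 median UMIs and log2(median percentage + 0.1) entered a limma model (version 3.58.1, R 4.3.3) over all clusters and 12 rats (8 residual degrees of freedom), adjusted by Benjamini-Hochberg within a contrast, threshold 0.05. The spread of each cluster was moderated towards that of all clusters, so the limma tests used more than these 8 degrees of freedom. All clusters come from the same rats and are not independent. Single values were compared by exact two-sided permutation tests over rats, adjusted over 6 comparisons, and correlations with 100000 permutations. Wilson and exact intervals are at 95%. Alternatives included edgeR 4.0.16 quasi-likelihood tests on nuclei, other scales, denominators and limits, and leaving out each rat. The scripts were tested on simulated data. Named clusters are ATL, the other loop clusters, the 2 most and 1 least correlated with ATL, and those called beside ATL up to 5; PTinj, PTnov1 and PST(Spp1+) were named after their values were seen. The members and tests were chosen with earlier results of these data known. Other software was Python with scipy 1.17.1, numpy 2.4.6, pandas 2.3.3 and matplotlib 3.10.9.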

Additional observations from a re-analysis of the deposited data

Results flagged for a closer look

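The response of UMIs per ATL nucleus differed between the compounds: the log2 change from Obese under sGCact minus that under sGCstim was -1.29 (limma, SE 0.31, adjusted p = 0.00183), lower in 9 of 9 comparisons of rats. An exact permutation test on the ATL medians alone gave p = 0.1, the lowest possible (adjusted p = 0.3). The same difference for the mitochondrial percentage was 4.12 on the log2(percentage + 0.1) scale (limma, SE 0.75, adjusted p = 0.00324), higher in 9 of 9, and ran from 1.68 to 6.14 with other pseudocounts. Both compounds share the same 3 Obese rats, so each difference is the direct contrast of the 2 treated groups, whose daily doses differed. Single rats were not screened for outliers because groups held 3.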

How the results depend on the processing

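Over alternatives other than leaving out a rat, 111 values of ATL kept their direction and their side of the threshold, 22 changed sign, 4 newly passed and 3 no longer passed. Among refits without 1 rat, 439 were unchanged in both respects, 37 changed sign, 3 newly passed and 1 no longer passed. The causes were not tested. No paired analysis was possible because the rats carry animal identifiers and no replicate number. The planned limit to clusters with at least 20 nuclei in every rat was not run, since ATL held 6, 16 and 19 nuclei in 3 rats; rats with at least 20 ATL nuclei and UMIs outside mitochondrial genes were added after seeing the data. Small numbers of ATL nuclei limit the medians, most in RK46_4.

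With at least 1000 UMIs the change in log odds of the share of all nuclei was -2.59 (sGCact minus Obese), -0.24 (sGCstim minus Obese) and -2.35 (sGCact minus sGCstim). With at most 1% mitochondrial UMIs it was -2.63 and -0.36 in the first 2 of these. DTL was called beside ATL in both sGCact contrasts with at least 1000 UMIs, 8% of 25 clusters in each. PTinj was called beside ATL for sGCact minus Obese with at most 1% mitochondrial UMIs, also 8% of 25. The limits remove most ATL nuclei of sGCact rats by the values already described, so the 3 changes in share that newly passed are no test of their number. Without proximal tubule nuclei it was 0.026 (Obese minus lean) and -0.41 (sGCstim minus Obese), as a centred log-ratio -0.26 (sGCstim minus Obese), and in rats with at least 20 ATL nuclei 0.0013 (sGCact minus Obese). The log2 change in UMIs at most 1% mitochondrial was -0.43 (sGCact minus Obese) and -0.57 (sGCact minus sGCstim), with 3 nuclei in each sGCact rat, and in rats with at least 20 ATL nuclei the latter was -1.36. For the mitochondrial percentage, the mean over nuclei gave -0.21 (Obese minus lean) and a pseudocount of 1 gave 1.44 (sGCact minus Obese).

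In exact permutation tests with at least 1000 UMIs and with at most 1% mitochondrial UMIs respectively, all obese minus lean was -0.20 and -0.035 for the share of loop nuclei and -0.33 and -0.063 for the TAL ratio. Judged by p-values adjusted over 6 comparisons, no exact test newly passed. With at least 1000 UMIs the DTL ratio of sGCact minus sGCstim was 1.33. UMIs relative to other clusters changed by -0.070 with means over nuclei and by -0.034 against the loop clusters (sGCstim minus Obese), and by 0.032 against the loop clusters (all obese minus lean). With at least 1000 UMIs the S score differed by 0.0109 (sGCact minus Obese), 0.00147 (sGCact minus sGCstim), 0.00525 (all obese minus lean) and 0.0102 (either compound minus vehicle), the G2M score by 0.000466 (sGCstim minus Obese), and the percentage called S or G2M by 0.58 (Obese minus lean) and 0.312 (all obese minus lean).

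Refits without each single rat moved the log odds of the share of all nuclei from -0.98 to 0.030 (sGCact minus Obese), -0.40 to 0.62 (sGCstim minus Obese), -1.62 to -0.51 (all obese minus lean) and -0.69 to 0.32 (either compound minus vehicle). It moved the UMI change from -1.27 to -0.89 (sGCact minus Obese) and the mitochondrial change from -0.32 to 0.44 (Obese minus lean) and 2.45 to 3.44 (sGCact minus Obese). The loop share ranged from -0.59 to 0.14 (sGCact minus sGCstim) and -0.27 to 0.60 (all obese minus lean), the DTL ratio from -0.98 to 0.042 (sGCstim minus Obese) and -0.028 to 0.95 (all obese minus lean), the TAL ratio from -0.80 to 0.32 (sGCact minus sGCstim) and -0.34 to 0.94 (all obese minus lean), and relative UMIs from -0.058 to 0.20 (sGCstim minus Obese). The S score ranged from -0.0115 to 0.00509 (Obese minus lean), -0.00436 to 0.0184 (sGCstim minus Obese), -0.0112 to 0.00418 (all obese minus lean) and -0.00877 to 0.00686 (either compound minus vehicle). The G2M score ranged from -0.00611 to 0.0172 (sGCact minus Obese), -0.0129 to 0.0104 (sGCstim minus Obese) and -0.00951 to 0.0138 (either compound minus vehicle), and the percentage called S or G2M from -4.90 to 0.517 (Obese minus lean) and -4.43 to 0.985 (either compound minus vehicle). The UMI call for sGCact minus Obese was lost without RK9_4.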
